A study of Rattus norvegicus with 132 samples.

Results

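The comparison set the colon of irradiated rats at day 4 against the colon of rats that received no irradiation, with RNA measured across the genome. It rested on 12 of the 132 libraries of the series: 6 libraries of colon at day 4 after abdominal irradiation and no drug, titled NT_D4_C, and 6 libraries of non-irradiated, non-treated colon, titled NI_C. All came from Sprague Dawley rats, an outbred laboratory strain, and were labelled as colon epithelium. The irradiated rats were given 5 fractions of 4 Gy to the abdomen between day 0 and day 4, and the labels do not say whether day 4 and day 7 count from the first or the last fraction. The members were found by their titles, and the columns of the count table were matched to them through the library names. The remaining libraries of the series are jejunum, later times and arms that received compound Kushen, a herbal extract, as powder or injection, or a vehicle. Of these, 6 colon libraries of irradiated rats without drug at day 7 entered comparisons below. So did 12 jejunum libraries, irradiated without drug at day 4 or non-irradiated. The irradiated colon arms given Kushen powder or oral vehicle, at day 4 and day 7, were not compared. They entered the statistical fit of the colon libraries, and so its filter, scaling and estimate of spread. The replicates are named biological in the labels, but the rats themselves are not identified.

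The colon surface is lined by absorptive colonocytes, mucus-producing goblet cells, hormone-producing enteroendocrine cells and chemosensory tuft cells, all renewed from stem cells at the crypt base. Ionizing radiation breaks DNA and stabilizes the transcription factor p53, which switches on genes for cell cycle arrest, for apoptosis and for its own inhibitor Mdm2. The crypt is known for rapid loss of dividing cells after irradiation and for regrowth from surviving cells, accompanied by inflammation of the mucosa.

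The tissue label was checked against markers on a scale shared by colon and jejunum libraries, in CPM, counts scaled to one common library total. Car1, a carbonic anhydrase of colonocytes, had 503 to 8590 CPM in irradiated colon and 16000 to 19800 CPM in non-irradiated colon, and at most 1.55 CPM in any jejunum library. Aqp8, an aquaporin on the same list, went against the label, at 0.432 to 125 CPM in irradiated colon and 1.88 to 9.82 CPM in non-irradiated colon, against 2.26 to 204 CPM in irradiated jejunum and 69.1 to 122 CPM in non-irradiated jejunum. Lct, the lactase of the small intestine, did not exceed 0.228 CPM in colon. Epcam, an adhesion protein of epithelial cells, was at 3122 to 4183 CPM (median 3717) in irradiated colon, against 3163 to 3662 CPM (median 3598) in non-irradiated colon on the scale of the colon libraries, used from here on. The groups overlapped (log2 fold change 0.064 ± 0.12 SE, adjusted p = 0.679), whereas the intestinal identity factors Cdx1 and Cdx2 were lower in all 6 irradiated libraries, at 43.8 to 155 and 190 to 451 CPM, against 227 to 268 and 594 to 666 CPM in non-irradiated colon on the shared scale. Hoxb13 and Hoxd13, posterior patterning genes on the same marker list, were at or near 0 in both groups. The libraries were bulk tissue, so fewer cells of a type and less RNA per cell cannot be told apart in any result below.

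The libraries were of similar depth, with 18827445 to 19463458 counts in irradiated colon and 18868551 to 19175011 counts in non-irradiated colon. Of 13306 genes tested, 3274 (24.6%) were higher and 2968 (22.3%) lower in irradiated colon, at an adjusted p below 0.05 in edgeR's quasi-likelihood test. The 2 groups did not overlap in CPM for 1786 higher genes (13.4%) and 1747 lower genes (13.1%). Fold changes above 4 were far more frequent upward, with 682 higher and 148 lower genes, and the median log2 fold change of all genes was 0.017. Irradiated libraries differed among themselves: on the first principal component, which held 66.2% of the variance of log2 CPM, replicate 6 lay at -87.82, replicates 4 and 5 at -52.69 and -48.99, replicates 1 to 3 between -25.13 and -11.32, and the non-irradiated libraries between 33 and 49.38. Replicates 1 to 3 carry library names of series 1 and replicates 4 to 6 of series 2. The effect of irradiation differed between the series for 775 of 12907 genes (6%), and among the genes called its median size on the log2 scale was 0.927 in series 2 and 0.478 in series 1. This comparison of the series, here and below, was chosen after the data were seen. Without irradiated replicate 6, 5224 genes were called, and without replicates 4 and 6 together 4264, a leave-out chosen after the data were seen. Mitochondrially encoded genes took 7.8% to 10.8% of counts in irradiated colon and 10.4% to 14.2% in non-irradiated colon, and 2847 genes were called with that share added to the fit. The ranges of that share overlapped little between the groups. Among the genes named below, the calls of Aldh1a1, Aoc1, Atp12a, Blm, Bnip3, Car1, Casp1, Ccl5, Cldn8, Col1a1, Col3a1, Colec10, Cox4i1, Cyp24a1, Ddb2, Fancd2, Ggta1, Hbegf, Hsd11b2, Il1b, Mcm2, Mcm7, Mdm4, Neurog3, Oas1a, Olfm4, Osm, Pdgfra, Ptgs1, Ptgs2, Pycard, Pyy, Slc16a1, Slc7a11, Smad6 and Traf1 were lost with that addition, and the part of the share in these results was not tested.

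Most targets of p53 were higher in irradiated colon. Of the 16 genes of cell cycle arrest and feedback, all tested, 11 were higher and 2 lower, with a median log2 fold change of 0.93. Of the 16 genes of apoptosis and repair, all tested, 11 were higher and 1 lower, with a median of 0.94. For 9 genes of the first list and 10 of the second, all 6 irradiated libraries exceeded all 6 non-irradiated ones, against 13.4% of all genes.

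Promoters of both p53 lists were searched for the p53 consensus, a pair of 10-base repeats without spacer, 20 bases in all. The window was 300 bases, from 250 before to 50 after the annotated start. Up to 2 mismatches were allowed, but none at the fixed C and G in the core of each repeat. Promoter sequences were those of RefSeq on the rat build GRCr8, and 14 genes of the first list and 11 of the second had one. A match stood in 2 promoters of each list (14.3% and 18.2%), against 0.335% of 33465 rat promoters and 0.291% of the promoters of 10294 genes tested. They are shown because all 4 genes were higher after irradiation, with the match in capitals, each on its own strand from 5′ to 3′.
Ccng1, chr10:25684827-25685126, minus strand, match with 1 mismatch at -242: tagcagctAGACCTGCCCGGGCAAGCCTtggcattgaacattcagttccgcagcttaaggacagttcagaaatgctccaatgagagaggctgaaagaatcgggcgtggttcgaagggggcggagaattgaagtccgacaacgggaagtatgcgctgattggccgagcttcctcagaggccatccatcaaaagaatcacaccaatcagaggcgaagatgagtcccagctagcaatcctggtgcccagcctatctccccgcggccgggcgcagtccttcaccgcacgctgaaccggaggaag
Cdkn1a, chr20:7150682-7150981, plus strand, match with 1 mismatch at -201: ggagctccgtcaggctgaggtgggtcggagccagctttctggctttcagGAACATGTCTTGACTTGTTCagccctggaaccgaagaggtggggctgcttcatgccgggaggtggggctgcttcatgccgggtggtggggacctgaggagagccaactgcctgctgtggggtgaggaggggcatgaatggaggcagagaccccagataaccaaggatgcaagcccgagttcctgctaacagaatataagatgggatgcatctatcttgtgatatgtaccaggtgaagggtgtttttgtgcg
Aen, chr1:142224283-142224582, plus strand, match with 2 mismatches at -30: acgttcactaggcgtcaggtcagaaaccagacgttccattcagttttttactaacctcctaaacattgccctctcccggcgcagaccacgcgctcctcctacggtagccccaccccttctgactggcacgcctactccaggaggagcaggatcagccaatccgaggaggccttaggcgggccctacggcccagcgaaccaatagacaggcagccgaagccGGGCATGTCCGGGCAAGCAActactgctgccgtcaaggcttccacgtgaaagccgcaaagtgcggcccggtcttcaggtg
Pidd1, chr1:205971551-205971850, minus strand, match with 2 mismatches at 11: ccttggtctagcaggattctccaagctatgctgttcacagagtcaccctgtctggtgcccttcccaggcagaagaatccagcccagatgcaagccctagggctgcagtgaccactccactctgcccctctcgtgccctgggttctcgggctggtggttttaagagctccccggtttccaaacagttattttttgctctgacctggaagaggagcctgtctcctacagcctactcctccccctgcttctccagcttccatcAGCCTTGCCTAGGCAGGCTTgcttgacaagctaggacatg
Positions count from the annotated start, with no base 0. A match describes letters and shows neither binding nor a cause, and the other members may hold sites outside this window.

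Cyclin G1, encoded by Ccng1, forms part of the Mdm2 feedback on p53. Its gene was at 388 to 513 CPM (median 417) in irradiated colon, against 59.1 to 71.2 CPM (median 64.2) in non-irradiated colon. The narrow range within each group left a wide gap between them (log2 fold change 2.73 ± 0.20 SE, adjusted p = 4.38e-12), and the effect was 2.62 in series 1 and 2.85 in series 2 (adjusted p of the difference = 0.382). Cdkn1a encodes p21, the inhibitor of cyclin-dependent kinases that halts the cell cycle, and was at 316 to 534 CPM (median 374) in irradiated colon, against 134 to 192 CPM (median 152) in non-irradiated colon. Mdm2, the ubiquitin ligase that degrades p53, was at 119 to 239.7 CPM (median 152) in irradiated colon, against 48.3 to 62 CPM (median 56.4) in non-irradiated colon. Neither gene's groups overlapped (log2 fold change 1.35, adjusted p = 3.76e-07 for Cdkn1a and log2 fold change 1.57, adjusted p = 1.01e-06 for Mdm2). Plk2, a stress-responsive kinase, showed the largest change of the list, at 56.9 to 186 CPM (median 77.7) in irradiated colon, against 3.37 to 4.87 CPM (median 3.68) in non-irradiated colon (log2 fold change 4.63 ± 0.58 SE, adjusted p = 1.05e-07). Zmat3, an RNA-binding protein, and Sesn2, an inhibitor of mTORC1 signalling, were higher without overlap (log2 fold changes 1.09 and 0.79). Btg2 and Gdf15, an antiproliferative factor and a stress hormone, were higher (log2 fold changes 0.98 and 1.86). Sesn1, a relative of Sesn2, went the other way, at 5.9 to 15.8 CPM (median 11.8) in irradiated colon, against 19.9 to 28.9 CPM (median 25.6) in non-irradiated colon. Here too the groups stood apart (log2 fold change -1.16 ± 0.23 SE, adjusted p = 0.000166). Mdm4 was lower (log2 fold change -0.34), a call lost without irradiated replicate 2 or without replicate 5. Gadd45a and Ppm1d, a growth-arrest gene and the phosphatase that dampens damage signalling, overlapped between groups, with adjusted p of 0.839 and 0.885.

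Among the death and repair genes, Eda2r, a death receptor of the TNF receptor family, was at 7.93 to 18.3 CPM (median 11.9) in irradiated colon, against 0 to 0.114 CPM (median 0.0554) in non-irradiated colon. It was nearly absent without irradiation (log2 fold change 7.86 ± 0.70 SE, adjusted p = 1.61e-10). Phlda3, which blocks Akt at the membrane, was at 73.5 to 156 CPM (median 99.9) in irradiated colon, against 0.301 to 2.38 CPM (median 1.16) in non-irradiated colon, and its effect was larger in series 2 (log2 fold change 5.68 in series 1 and 7.53 in series 2, adjusted p of the difference = 0.0373). Aen, an exonuclease active in apoptosis, was at 32.8 to 66 CPM (median 47.3) in irradiated colon, against 6.07 to 11.3 CPM (median 9.13) in non-irradiated colon, again with the larger effect in series 2 (adjusted p of the difference = 0.0347). Genes of the mitochondrial route moved with them: Pmaip1 and Bbc3, the BH3-only proteins Noxa and Puma, had log2 fold changes of 1.70 and 1.04, and Bax, the pore-forming effector, 0.65. The receptors Fas and Tnfrsf10b, which start apoptosis from the cell surface, were higher (log2 fold changes 0.99 and 1.91). No irradiated library overlapped a non-irradiated one for any of these 5 genes. Pidd1, a scaffold for caspase-2 activation, was higher (log2 fold change 0.88), and Rps27l, a ribosomal protein paralog, had a log2 fold change of 1.23. The nucleotide excision repair gene Ddb2 was lower, at 0.958 to 2.03 CPM (median 1.3) in irradiated colon, against 1.94 to 2.88 CPM (median 2.44) in non-irradiated colon (log2 fold change -0.79, adjusted p = 0.0141). The ranges of Ddb2 overlapped. Xpc, Perp and Pcna did not pass the test, with adjusted p of 0.523, 0.121 and 0.437.

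**Figure D1:**
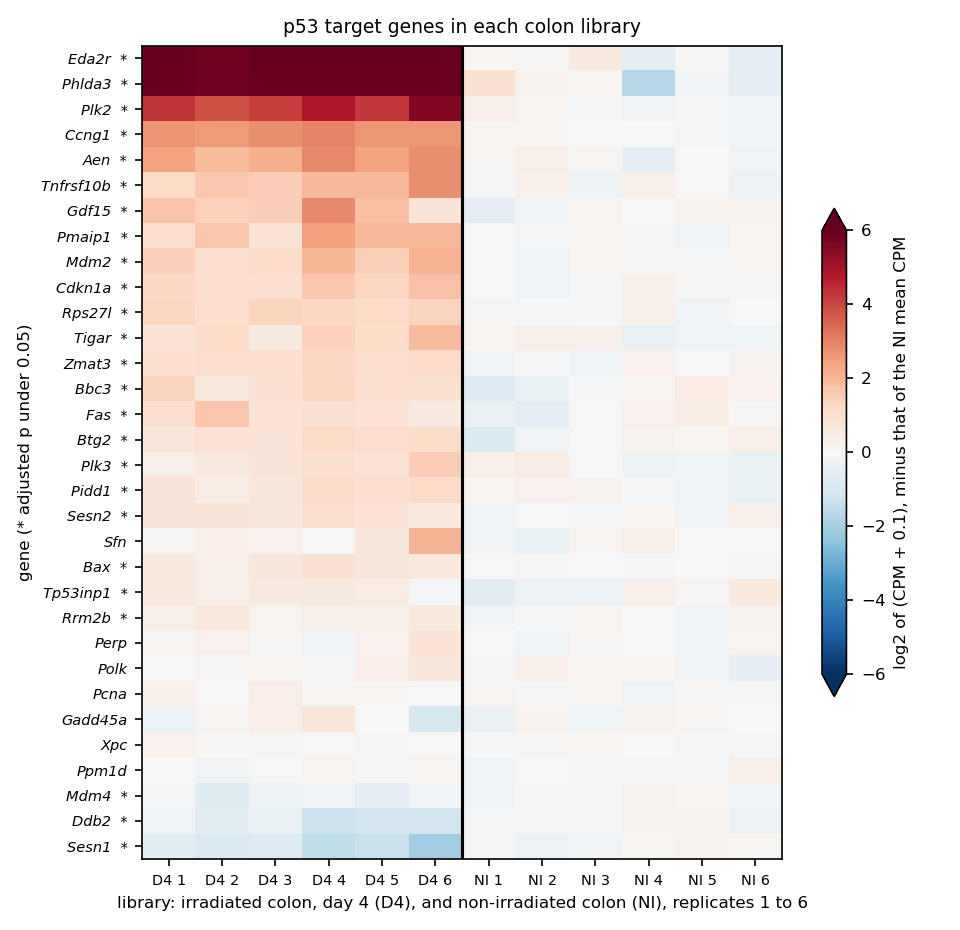
Level of 32 p53 target genes in each irradiated (left) and non-irradiated (right) colon library, as log2 of CPM plus 0.1, minus that of the mean CPM of non-irradiated colon, on a scale that ends at 6 in both directions; asterisks mark the 25 genes called. Columns are libraries and rows are genes; most rows turn red (higher) in all 6 irradiated libraries, and Sesn1, Ddb2 and Mdm4 turn blue (lower).

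Most genes of DNA replication were higher. Of the 24 replication genes, 19 were higher and none lower, with a median log2 fold change of 0.65, and 14 of the 24 had groups without overlap. Rrm2, the inducible subunit of ribonucleotide reductase, was at 51.5 to 133 CPM (median 70.6) in irradiated colon, against 9.02 to 17.6 CPM (median 15.3) in non-irradiated colon. No overlap remained between the groups (log2 fold change 2.45 ± 0.28 SE, adjusted p = 1.66e-08), and series 2 had the larger effect (log2 fold change 1.74 in series 1 and 3.26 in series 2, adjusted p of the difference = 0.0274). Cyclin E1, encoded by Ccne1, drives entry into S phase, and its gene was at 11.4 to 22.2 CPM (median 15.4) in irradiated colon, against 2.23 to 4.67 CPM (median 3.83) in non-irradiated colon (log2 fold change 2.09 ± 0.25 SE, adjusted p = 6.05e-08). All 6 genes of the replicative helicase, Mcm2 to Mcm7, were higher without overlap, with log2 fold changes between 0.59 for Mcm2 and 1.37 for Mcm5. The call of Mcm2 was lost without non-irradiated replicate 4 or 6 or irradiated replicate 3. Gins2 and Cdc6, a helicase partner and a loader of the helicase, were higher (log2 fold changes 1.09 and 1.11). With the mitochondrial share added to the fit, 9 replication genes were higher.

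Most mitosis genes were higher as well, though most ranges overlapped. Of 22 genes, 16 were higher and none lower (median log2 fold change 0.76). Groups without overlap were seen for 4, Ccnb1, Prc1, Cdk1 and Ttk, while 13.4% of all genes were higher without overlap. Ccnb1, the mitotic cyclin B1, was at 28.4 to 42.1 CPM (median 40.0) in irradiated colon, against 8.42 to 25.1 CPM (median 17.7) in non-irradiated colon (log2 fold change 1.20 ± 0.23 SE, adjusted p = 7.65e-05). Cdk1, its kinase partner, was at 24.6 to 39.7 CPM (median 37.1) in irradiated colon, against 10.9 to 24 CPM (median 17.2) in non-irradiated colon (log2 fold change 1.04, adjusted p = 0.000165). Aurka, a kinase of the spindle poles, overlapped by the range of its groups and was higher (log2 fold change 1.01), with an effect of 0.45 in series 1 and 1.72 in series 2 (adjusted p of the difference = 0.029). Mki67, which encodes the proliferation marker Ki-67, was at 37.9 to 69.8 CPM (median 57.2) in irradiated colon, against 26.4 to 71.3 CPM (median 47.6) in non-irradiated colon. These ranges lay over each other (log2 fold change 0.26 ± 0.23 SE, adjusted p = 0.373), and the same held for Top2a (log2 fold change 0.32, adjusted p = 0.223) and Plk1 (log2 fold change 0.25, adjusted p = 0.324), a DNA topoisomerase and a mitotic kinase. Over the mitosis list, the median log2 fold change was 0.35 in series 1 and 1.33 in series 2. Within series 1 alone 3 of the list were called, and with the mitochondrial share added to the fit 5.

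Of 24 genes of damage signalling and repair, 12 were higher and none lower (median log2 fold change 0.41). Xrcc5, Rad18, Atr, Exo1 and Chek1 had groups apart. Atr and Chek1, the kinases of the replication checkpoint, were higher (log2 fold changes 1.02 and 0.88). The break sensors Atm and Chek2 overlapped, with adjusted p of 0.412 and 0.415. Fancd2 lost its call without non-irradiated replicate 4 or 6, and Blm without any of those or of non-irradiated replicate 5 and irradiated replicates 3, 4 and 6. Without irradiated replicate 6, the list counted 11 higher and 1 lower, and with the mitochondrial share added to the fit 6 higher.

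The Wnt pathway keeps crypt base cells in a stem-like state, and several of its targets are feedback inhibitors. Of 19 stem cell and Wnt target genes tested, 10 were higher and 2 lower, with a median log2 fold change of 0.94. Notum and Tnfrsf19 were under the count filter. Nkd1, an inhibitor acting through Dishevelled, was at 5.04 to 18.1 CPM (median 7.72) in irradiated colon, against 0.0601 to 0.706 CPM (median 0.632) in non-irradiated colon, and Axin2, a scaffold of beta-catenin breakdown, at 33.2 to 73.8 CPM (median 40.9) in irradiated colon, against 7.09 to 16.9 CPM (median 11.4) in non-irradiated colon. Both were clear of overlap (log2 fold change 4.07, adjusted p = 2.32e-08 for Nkd1 and log2 fold change 1.92, adjusted p = 4.51e-07 for Axin2). Ascl2, a transcription factor of crypt base cells, was at 3.01 to 7.22 CPM (median 5.26) in irradiated colon, against 0.481 to 1.37 CPM (median 0.86) in non-irradiated colon (log2 fold change 2.63 ± 0.52 SE, adjusted p = 0.000112). Sox9, Myc and Rnf43, 2 crypt transcription factors and a ligase that removes Wnt receptors, were higher without overlap (log2 fold changes 1.79, 1.59 and 1.18). Lgr5, the receptor used to mark crypt base stem cells, was at 0.437 to 1.58 CPM (median 0.732) in irradiated colon, against 0.174 to 0.74 CPM (median 0.371) in non-irradiated colon. It was scarce in all libraries, its ranges overlapped and it did not pass the test (log2 fold change 1.24 ± 0.53 SE, adjusted p = 0.0521). Rgmb and Smoc2 were the members that were lower: Rgmb, a BMP co-receptor, was at 18.9 to 29.3 CPM (median 23.5) in irradiated colon, against 32.6 to 44.9 CPM (median 37.3) in non-irradiated colon (log2 fold change -0.66, adjusted p = 0.000282), without overlap, and Smoc2, a matrix protein of crypt base cells, at 0.492 to 5.13 CPM (median 1.02) in irradiated colon, against 2.65 to 7.6 CPM (median 4.92) in non-irradiated colon (log2 fold change -1.56, adjusted p = 0.0126), with overlap. Olfm4, a secreted protein of human and jejunal stem cells, was higher with overlapping ranges (log2 fold change 2.79, adjusted p = 0.000771) and had 2.73, 1.1, 4.74, 33.8, 2.79 and 1.91 CPM in irradiated replicates 1 to 6, with replicate 4 far above the others. With the mitochondrial share added to the fit, 6 of the list were higher and 2 lower.

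The regenerative list holds genes that mouse studies associate with the repairing and fetal-like gut epithelium. Of 20 tested, 15 were higher and none lower, with a median log2 fold change of 2.25. Sprr1a and Ankrd1 were under the filter. Anxa1, an annexin that limits inflammation, was at 29.6 to 794 CPM (median 110.1) in irradiated colon, against 0.815 to 2.84 CPM (median 1.32) in non-irradiated colon. All irradiated libraries were above the non-irradiated ones, over a wide range (log2 fold change 6.68 ± 0.80 SE, adjusted p = 5.63e-08). Clu, a secreted chaperone that marks revival stem cells in mice, was at 66.4 to 402 CPM (median 148) in irradiated colon, against 19.6 to 29.4 CPM (median 24.7) in non-irradiated colon. It too separated the groups (log2 fold change 2.86 ± 0.67 SE, adjusted p = 0.000849), with the larger effect in series 2 (log2 fold change 1.86 in series 1 and 3.58 in series 2, adjusted p of the difference = 0.0326). Anxa2, S100a6 and S100a11, calcium-binding proteins of migrating cells, were higher without overlap (log2 fold changes 2.41, 1.24 and 2.40). Ccn1 and Ccn2, matricellular targets of the YAP pathway, were higher (log2 fold changes 2.01 and 5.41), and neither overlapped. Not all members followed: Emp1 was at 2614 to 4325 CPM (median 3766) in irradiated colon, against 4177 to 5906 CPM (median 4752) in non-irradiated colon, and Lamb3 at 159 to 902 CPM (median 207) in irradiated colon, against 186 to 290.5 CPM (median 220.4) in non-irradiated colon. Both overlapped, with adjusted p of 0.0829 and 0.295.

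Most genes of the EGF family, whose ligands drive regrowth of injured epithelium, were higher, while the ligand Egf and the co-receptor Erbb2 were lower. Of 11 genes of the family, 7 were higher and 2 lower (median log2 fold change 1.84), and without irradiated replicate 6 the median was 0.99. Areg and Ereg, which encode amphiregulin and epiregulin, were at 56.2 to 122 CPM with irradiation, against 15.3 to 24.7 CPM without, and 6.72 to 14.3 CPM with irradiation, against 0.928 to 2.58 CPM without. These ligands had no overlap (log2 fold change 2.25, adjusted p = 6.01e-08 for Areg and log2 fold change 2.49, adjusted p = 1.03e-07 for Ereg). Epgn, which encodes epigen, was at 2.46 to 33.2 CPM (median 5.27) in irradiated colon, against 0 to 0.339 CPM (median 0.174) in non-irradiated colon (log2 fold change 5.53 ± 0.92 SE, adjusted p = 1.18e-05). Egfr, the receptor, was at 17.4 to 70.0 CPM (median 51.4) in irradiated colon, against 8.31 to 12.8 CPM (median 10.2) in non-irradiated colon, and Erbb2 at 104 to 232 CPM (median 174) in irradiated colon, against 321 to 528 CPM (median 412) in non-irradiated colon. The receptors thus moved apart, Egfr higher (log2 fold change 2.04, adjusted p = 3.09e-06) and Erbb2 lower (log2 fold change -1.31, adjusted p = 3.64e-06), neither with overlap. Egf was lower (log2 fold change -1.17) with overlapping ranges. Hbegf was higher (log2 fold change 1.84), a call lost without irradiated replicate 6, which had the highest value, 31.1, 27.4, 40.2, 15.7, 45.3 and 194 CPM in replicates 1 to 6. In the BMP pathway, which opposes stem cell renewal, 3 of 13 genes were higher and 2 lower, close to the shares of all genes, and without irradiated replicate 6 only 1 was higher. Smad6 and Smad7, the inhibitory Smads that BMP signalling induces, were lower (log2 fold changes -1.02 and -0.91). The target genes Id1 and Id3 did not pass the test, with adjusted p of 0.0889 and 0.113.

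Mature colonocyte genes split. Of 27 transport and differentiation genes tested, 7 were lower and 3 higher, with a median log2 fold change of -0.11 that was -0.46 without irradiated replicate 4, -0.17 without irradiated replicate 2, and -0.27 and -0.20 without non-irradiated replicates 2 and 6, and the share lower was near that of all genes. Guca2a, which encodes the secreted peptide guanylin, was at 248 to 1319 CPM (median 908) in irradiated colon, against 2687 to 3806 CPM (median 3432) in non-irradiated colon. All irradiated libraries were lower (log2 fold change -2.06 ± 0.39 SE, adjusted p = 7.62e-05). Scnn1b and Scnn1g, subunits of the epithelial sodium channel, were lower (log2 fold changes -1.61 and -2.88), and Scnn1g was at 0.0521 to 0.226 CPM (median 0.0563) in irradiated colon, against 0.481 to 1.22 CPM (median 0.674) in non-irradiated colon. Hsd11b2, which shields the aldosterone receptor from glucocorticoids, was at 15.5 to 162 CPM (median 84.6) in irradiated colon, against 273 to 365 CPM (median 322) in non-irradiated colon (log2 fold change -1.91 ± 0.57 SE, adjusted p = 0.00645). Slc16a1, a transporter of short-chain fatty acids, was lower (log2 fold change -1.15). Car1 was at 573 to 9819 CPM (median 5944) in irradiated colon, against 18300 to 22090 CPM (median 20120) in non-irradiated colon, without overlap, but its call (log2 fold change -2.08, adjusted p = 0.0236) was lost without irradiated replicate 4 or without replicate 6. By contrast, Slc26a3, the chloride exchanger, Krt20, a keratin of surface cells, and Vil1, a microvillus protein, overlapped between groups, with adjusted p of 0.628, 0.943 and 0.975. Slc26a3 had 1363, 2102, 1619, 2971, 938 and 262 CPM in irradiated replicates 1 to 6, and replicate 6 lay far below the other replicates. Atp12a, a proton-potassium pump, was the extreme case, with 3.64, 29.9, 1.3, 3909, 173 and 27.1 CPM in irradiated replicates 1 to 6, against at most 0.181 CPM in non-irradiated colon. All irradiated libraries were above the non-irradiated ones, spread over 3 orders of magnitude (log2 fold change 11.61 ± 2.88 SE, adjusted p = 0.00141). With the mitochondrial share added to the fit, 3 of the list were lower and none higher.

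Goblet cell genes mostly did not pass the test. Of 17, 2 were higher and 2 lower, and on leaving out irradiated replicate 4 the count became 1 higher and 8 lower, on leaving out non-irradiated replicate 4 it became 2 higher and 4 lower, and with the mitochondrial share added to the fit 1 higher and 8 lower. Itln1, the lectin intelectin-1, was at 0.656 to 8.17 CPM (median 3.81) in irradiated colon, against 32 to 66.2 CPM (median 51.8) in non-irradiated colon, and Clca1, a secreted metalloprotease of mucus, at 11.9 to 136 CPM (median 48.8) in irradiated colon, against 296 to 768 CPM (median 419) in non-irradiated colon. These separated the groups (log2 fold change -3.81, adjusted p = 2.13e-05 for Itln1 and log2 fold change -2.96, adjusted p = 0.000129 for Clca1). Muc13, a membrane mucin, was higher, at 0.642 to 8.79 CPM (median 2.78) in irradiated colon, against 0.0569 to 0.302 CPM (median 0.0844) in non-irradiated colon (log2 fold change 4.61 ± 0.73 SE, adjusted p = 6.16e-06). Muc2, the main gel-forming mucin, whose counts stand under an identifier of an earlier annotation, had 6258, 1639, 6527, 15520, 5115 and 4209 CPM in irradiated replicates 1 to 6 and 2176 to 7302 CPM (median 5164) in non-irradiated colon. The irradiated range enclosed the other (log2 fold change 0.34 ± 0.33 SE, adjusted p = 0.412). Tff3, Zg16 and Atoh1, a trefoil peptide, a mucus lectin and the goblet fate factor, overlapped too, with adjusted p of 0.138, 0.202 and 0.24.

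Of 15 enteroendocrine genes, 5 were higher and 1 lower, while 24.6% of all genes were higher and 22.3% lower. The share higher was thus near that of all genes. Without irradiated replicate 4 only 3 were higher, and with the mitochondrial share added to the fit 2. Gcg, the precursor of glucagon-like peptides, was at 114 to 366 CPM (median 177) in irradiated colon, against 41.5 to 78.5 CPM (median 54.4) in non-irradiated colon (log2 fold change 1.73 ± 0.30 SE, adjusted p = 1.98e-05). Pyy, which encodes peptide YY, was higher (log2 fold change 1.41) with some overlap, and Tac1, the substance P precursor, without it (log2 fold change 2.51). Neurog3, the factor that starts the endocrine fate, was lower, at 0 to 0.214 CPM (median 0.0803) in irradiated colon, against 0.242 to 0.683 CPM (median 0.452) in non-irradiated colon (log2 fold change -2.27 ± 0.79 SE, adjusted p = 0.0181), at a level of few counts. Chga, the granule protein chromogranin A, did not pass the test (log2 fold change -0.64, adjusted p = 0.12). Among 11 tuft cell genes 2 were higher: Alox5, which starts leukotriene synthesis and is also a leukocyte gene, was at 8.22 to 40.2 CPM (median 14.2) in irradiated colon, against 1.81 to 4.06 CPM (median 3.69) in non-irradiated colon (log2 fold change 2.28 ± 0.39 SE, adjusted p = 1.96e-05), and the call of Ptgs1 was lost without irradiated replicate 4. The tuft markers Dclk1, Trpm5 and Pou2f3 overlapped, with adjusted p of 0.745, 0.433 and 0.711. Most junction genes did not pass the test, with 4 of 17 higher, near the share of all genes, and 1 lower; on leaving out irradiated replicate 4, 2 were lower. Cldn2 and Cldn4, a pore-forming and a sealing claudin, were higher (log2 fold changes 1.78 and 1.41), and Cldn8 was lower, at 2.35 to 96.4 CPM (median 44.8) in irradiated colon, against 166 to 272 CPM (median 212) in non-irradiated colon (log2 fold change -2.27, adjusted p = 0.0145). Cdh1, the epithelial cadherin, overlapped (log2 fold change 0.20, adjusted p = 0.22).

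**Figure D2:**
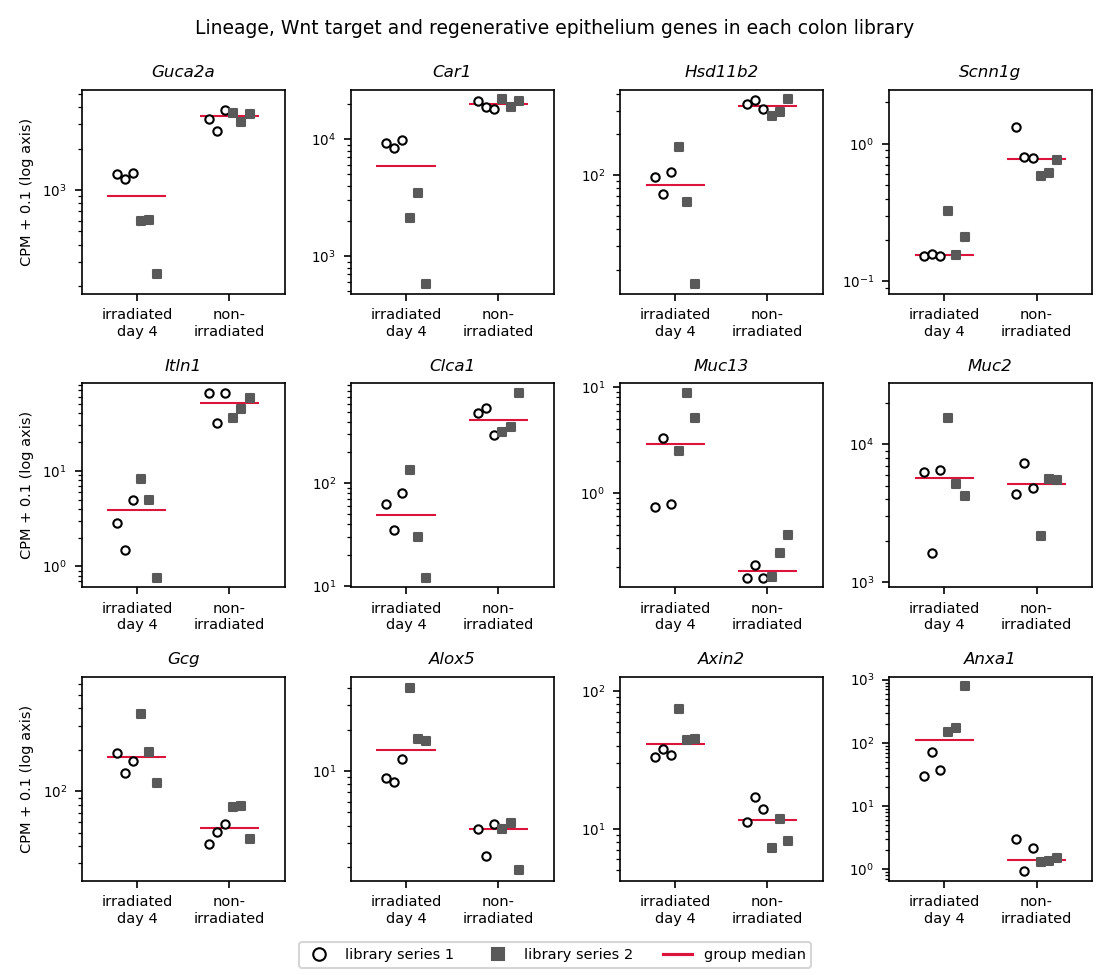
CPM of 12 lineage and crypt genes on a log10 axis, with 0.1 added, for each irradiated (left) and non-irradiated (right) colon library; points are libraries, marked by library series, and lines are medians. Guca2a, Hsd11b2, Itln1 and Clca1 lie lower in irradiated colon, Gcg, Axin2 and Anxa1 higher, and Muc2 overlaps.

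Most genes of chemokines, cytokines and acute mediators that were tested were higher. Called increases of over 4-fold were seen in 14 of 20 chemokine genes and 10 of 16 genes of cytokines and acute mediators. Over all genes the count was 682 (5.13%). Cxcl2, Cxcl3, Nox1 and Il22 had 0 counts in non-irradiated colon, so they passed the count filter through irradiated libraries only. Members under the filter are not in these counts, so the shares are no test of the lists. The mediator list also holds genes that encode no cytokine, such as Duox2. Of the 20 chemokine genes tested, 16 were higher and 1 lower, with a median log2 fold change of 3.26, and 9 of the 20 were higher without overlap. Chemokines draw leukocytes into tissue, and those of the CXC family that bind CXCR2 attract neutrophils. Cxcl1, such a ligand, was at 0.573 to 9.4 CPM (median 2.4) in irradiated colon, against 0 to 0.058 CPM (median 0) in non-irradiated colon, so nearly absent without irradiation. The ratio of its summed CPM was 187, with a 95% counting interval from 51.5 to 1552, and the adjusted p was 3.13e-08. Cxcl2, another ligand of CXCR2, was at 0.104 to 10.6 CPM (median 0.745) in irradiated colon and at 0 counts in all non-irradiated libraries, at least 81.8-fold higher against 3 counts over the group. Cxcl3 had 3.8, 7.99, 1.72, 10.9, 38.5 and 95.8 CPM in irradiated replicates 1 to 6 and 0 counts in non-irradiated colon. Cxcl6 had 4.55, 6.95, 1.62, 19.7, 43.7 and 134 CPM in irradiated colon, against at most 0.0569 CPM in non-irradiated colon. Replicate 6 was the highest and replicate 3 the lowest for both. The ligands of CXCR3, which attract T cells and respond to interferon, were higher throughout: Cxcl9 was at 7.32 to 20.1 CPM (median 15.7) in irradiated colon, against 0.302 to 1.59 CPM (median 0.636) in non-irradiated colon, Cxcl10 at 28.5 to 121 CPM (median 89.6) in irradiated colon, against 3.26 to 5.23 CPM (median 3.9) in non-irradiated colon and Cxcl11 at 51.6 to 131 CPM (median 93.3) in irradiated colon, against 6.67 to 16.5 CPM (median 12.7) in non-irradiated colon. None of these overlapped (log2 fold changes 4.40, 4.30 and 2.99). Ccl5, a chemokine made by T cells and NK cells, was lower, at 1.31 to 3.21 CPM (median 2.37) in irradiated colon, against 3.95 to 7.39 CPM (median 5.25) in non-irradiated colon (log2 fold change -1.26 ± 0.35 SE, adjusted p = 0.00391). Ccl20, Ccl19 and Cxcl13, which attract lymphocytes, were higher (log2 fold changes 2.37, 4.82 and 3.94), with overlapping ranges. Cxcl13 had 20.6, 0.116, 13.3, 0.0564, 28.8 and 19.7 CPM in irradiated replicates 1 to 6, so that replicates 2 and 4 lay far below the others, and Ccl19 was at 0 in those 2 replicates.

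The promoters of the chemokine list, the list of cytokines and acute mediators and the NF-kappa-B feedback list were searched on either strand. The motif was GGG, any 5 bases and CC, a loose form of the NF-kappa-B site. Matches can overlap, and a site read on both strands counts 2 times. A match stood in 10 of 16 chemokine promoters (62.5%) and 14 of 17 promoters of cytokines and acute mediators (82.4%). Among feedback promoters it was 10 of 11 (90.9%). The count for cytokines and acute mediators includes Il6, Il11, Il17a, Ifng, Csf2, Tslp and Ptges, which were not tested for expression. The motif is common, at 47.3% of all rat promoters and 65.8% of those of genes tested, so the chemokine share lay above the first of these shares and below the second. The promoters of Cxcl10 and Cxcl1 are shown for the spacing of their matches upstream of the start, on GRCr8 from RefSeq, with matches in capitals.
Cxcl10, chr14:15988816-15989115, plus strand, 3 matches from -187 to -127: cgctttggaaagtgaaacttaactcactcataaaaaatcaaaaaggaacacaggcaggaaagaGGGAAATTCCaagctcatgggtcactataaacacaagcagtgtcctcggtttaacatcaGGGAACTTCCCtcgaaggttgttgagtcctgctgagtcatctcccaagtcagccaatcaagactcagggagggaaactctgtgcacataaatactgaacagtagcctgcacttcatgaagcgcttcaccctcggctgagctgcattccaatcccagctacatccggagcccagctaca
Cxcl1, chr14:17479272-17479571, minus strand, 4 matches from -103 to -83: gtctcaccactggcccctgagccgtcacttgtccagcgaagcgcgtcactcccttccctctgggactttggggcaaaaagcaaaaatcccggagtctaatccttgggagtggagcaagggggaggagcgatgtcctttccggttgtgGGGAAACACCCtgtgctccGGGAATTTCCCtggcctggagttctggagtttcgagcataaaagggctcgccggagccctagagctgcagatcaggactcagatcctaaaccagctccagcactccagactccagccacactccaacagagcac
A run of capitals longer than the motif holds a pair of overlapping matches, 1 on each strand.

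Of 16 cytokines and acute mediators tested, 14 were higher and none lower, with a median log2 fold change of 2.67. Il6, Il10, Il11, Il17a, Ifng, Csf2 and Csf3 were under the filter and were not tested. Duox2 and its maturation factor Duoxa2 form the epithelial enzyme that releases hydrogen peroxide into the lumen. Duox2 was at 227 to 2031 CPM (median 1198) in irradiated colon, against 3.27 to 13.7 CPM (median 5.97) in non-irradiated colon, and Duoxa2 at 35.8 to 411 CPM (median 183) in irradiated colon, against 0.24 to 1.25 CPM (median 0.857) in non-irradiated colon. Both stood far apart between groups (log2 fold change 7.12, adjusted p = 4.15e-10 for Duox2 and log2 fold change 7.67, adjusted p = 2.47e-09 for Duoxa2). Noxo1, an organizer of the related oxidase Nox1, was higher (log2 fold change 2.46), and Nox1 was at 0.109 to 8.34 CPM (median 1.2) in irradiated colon and at 0 counts in non-irradiated colon, at least 70.7-fold higher. Nos2, the inducible nitric oxide synthase, was at 0.417 to 10.0 CPM (median 2.15) in irradiated colon, against 0 to 0.0569 CPM (median 0) in non-irradiated colon, with a ratio of 405, with a 95% counting interval from 72.3 to 16035 (adjusted p = 4.38e-05). Il1a, an alarmin of epithelial cells, had 17.5, 20.6, 8.39, 82.7, 59.8 and 98.7 CPM in irradiated replicates 1 to 6, against 0 to 0.399 CPM (median 0.231) in non-irradiated colon. Every irradiated library was higher (log2 fold change 7.47 ± 0.82 SE, adjusted p = 1.2e-08). Tnf and Il1rn, the cytokine and the interleukin-1 receptor antagonist, were higher without overlap (log2 fold changes 3.74 and 2.88), and Il1b was at 2.54 to 20.9 CPM (median 4.16) in irradiated colon, against 0.363 to 2.11 CPM (median 1.34) in non-irradiated colon (log2 fold change 2.22, adjusted p = 0.00168). Il22, a lymphocyte cytokine that acts on epithelium, was at 0.365 to 3.72 CPM (median 1.75) in irradiated colon and at 0 counts in all non-irradiated libraries, at least 66.6-fold higher. Lif, a cytokine of the interleukin-6 family, had a narrow range in both groups, at 16.3 to 30.8 CPM (median 22) in irradiated colon, against 6.52 to 9.4 CPM (median 8.63) in non-irradiated colon (log2 fold change 1.44 ± 0.14 SE, adjusted p = 1.17e-09). Il18, an epithelial cytokine, was at 14.1 to 73.5 CPM with irradiation, against 63.4 to 97.4 CPM without, with overlap and an adjusted p of 0.0827. The call of Osm was lost without irradiated replicate 6 and that of Ptgs2 on leaving out any of 8 single libraries, irradiated replicates 4 and 6 and all non-irradiated ones, and without irradiated replicate 3 the list had 14 higher and 1 lower.

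NF-kappa-B induces its own inhibitors, and of 13 such feedback genes 8 were higher and 1 lower. Tnfaip3, the ubiquitin editor A20, was at 49.7 to 165 CPM (median 77.7) in irradiated colon, against 13.4 to 23.3 CPM (median 18.9) in non-irradiated colon (log2 fold change 2.31 ± 0.34 SE, adjusted p = 1.69e-06). Nfkb2 and Bcl3, a subunit and a nuclear cofactor, were higher (log2 fold changes 0.99 and 1.30) without overlap. Traf1 was lower (log2 fold change -0.84), with overlap. Antimicrobial genes were higher in 5 of 10 tested. Pla2g2a, a secreted phospholipase that kills Gram-positive bacteria, was at 337 to 6495 CPM (median 2308) in irradiated colon, against 1.3 to 29.6 CPM (median 2.7) in non-irradiated colon. The groups did not meet (log2 fold change 8.05 ± 0.96 SE, adjusted p = 4.29e-08), and series 2 had the larger effect (log2 fold change 5.83 in series 1 and 11.23 in series 2, adjusted p of the difference = 0.0315). Reg3b and Reg3g, C-type lectins of the mucus layer, had 183, 294, 12, 17.3, 1020 and 2015 CPM and 322, 349, 38.5, 7.61, 890.0 and 1760 CPM in irradiated replicates 1 to 6. Both were lowest in replicates 3 and 4 and highest in replicates 5 and 6, against at most 10.2 and 15.8 CPM in non-irradiated colon. Gpx2, a glutathione peroxidase of gut epithelium counted among the NRF2 targets, was at 1269 to 5515 CPM (median 3744) in irradiated colon, against 79.3 to 244 CPM (median 119.7) in non-irradiated colon (log2 fold change 4.58 ± 0.37 SE, adjusted p = 1.8e-11). Of the 10 NRF2 genes, Txnrd1, Hmox1 and Slc7a11 were the others higher, and none was lower.

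Interferon response genes did not move as 1 group. Of 23 genes tested, 11 were higher and 2 lower, with a median log2 fold change of 0.60. The guanylate-binding proteins Gbp2, Gbp4 and Gbp5, which restrict intracellular microbes and follow interferon-gamma, had the largest changes: Gbp4 was at 21.8 to 150.0 CPM (median 53.7) in irradiated colon, against 0.326 to 1.08 CPM (median 0.561) in non-irradiated colon (log2 fold change 6.71 ± 0.65 SE, adjusted p = 8.48e-10), and Gbp5 at 22.9 to 72.7 CPM (median 48.4) in irradiated colon, against 1.14 to 2.79 CPM (median 1.72) in non-irradiated colon (log2 fold change 4.69 ± 0.38 SE, adjusted p = 2.44e-11). Neither overlapped. Ifit2 and Ifit3, RNA-binding antiviral proteins, were higher (log2 fold changes 3.22 and 3.12). Antigen processing genes followed, with log2 fold changes of 0.98 for Tap1, 0.70 for Psmb8 and 0.46 for Psmb9. Oas1a, a sensor of double-stranded RNA, was lower, at 3.88 to 33.8 CPM (median 23.6) in irradiated colon, against 55.8 to 86.3 CPM (median 67.7) in non-irradiated colon (log2 fold change -1.62 ± 0.51 SE, adjusted p = 0.00965). Mx1 and Oasl, classical targets of type I interferon, overlapped, with adjusted p of 0.863 and 0.691. Isg15 was listed at 0 in all 12 libraries, which is not read as absence, since the annotation behind the counts is not known here. None of 10 MHC class II genes, which present antigen to T cells, passed the test in edgeR or in DESeq2 and 1 had an unadjusted p below 0.05, against 46.9% of all genes in either direction; without non-irradiated replicate 3, 2 were higher, and without irradiated replicate 2, 1.

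Of 13 genes of inflammatory cell death, 7 were higher and 2 lower. Ripk3, the kinase of necroptosis, was at 116 to 1269 CPM (median 456) in irradiated colon, against 21.9 to 40.1 CPM (median 27.1) in non-irradiated colon (log2 fold change 4.06 ± 0.52 SE, adjusted p = 1.84e-07). Its executor Mlkl overlapped (log2 fold change 0.23, adjusted p = 0.379). Gsdmd, the pore of pyroptosis, was at 167 to 234 CPM (median 212) in irradiated colon, against 101 to 110.0 CPM (median 105) in non-irradiated colon. Its ranges were narrow and apart (log2 fold change 0.96 ± 0.19 SE, adjusted p = 0.000131). Pycard, the inflammasome adaptor, was lower, at 12.3 to 81.5 CPM (median 49.4) in irradiated colon, against 128 to 151 CPM (median 139) in non-irradiated colon (log2 fold change -1.63 ± 0.44 SE, adjusted p = 0.00267). Casp1, the inflammasome protease, was lower, a call lost without irradiated replicate 4 or 6 or non-irradiated replicate 4, 5 or 6, and the lower count of the list ran from 1 without irradiated replicate 4 to 4 without irradiated replicate 3. Complement genes were higher in 8 of 10, with none lower. Cd59, which shields cells from the membrane attack complex, was at 602 to 1369 CPM (median 1043) in irradiated colon, against 167 to 283 CPM (median 219.7) in non-irradiated colon (log2 fold change 2.13 ± 0.20 SE, adjusted p = 5.99e-10). C3 and Cfb, the core of the alternative pathway, were higher (log2 fold changes 2.28 and 2.46).

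**Figure D3:**
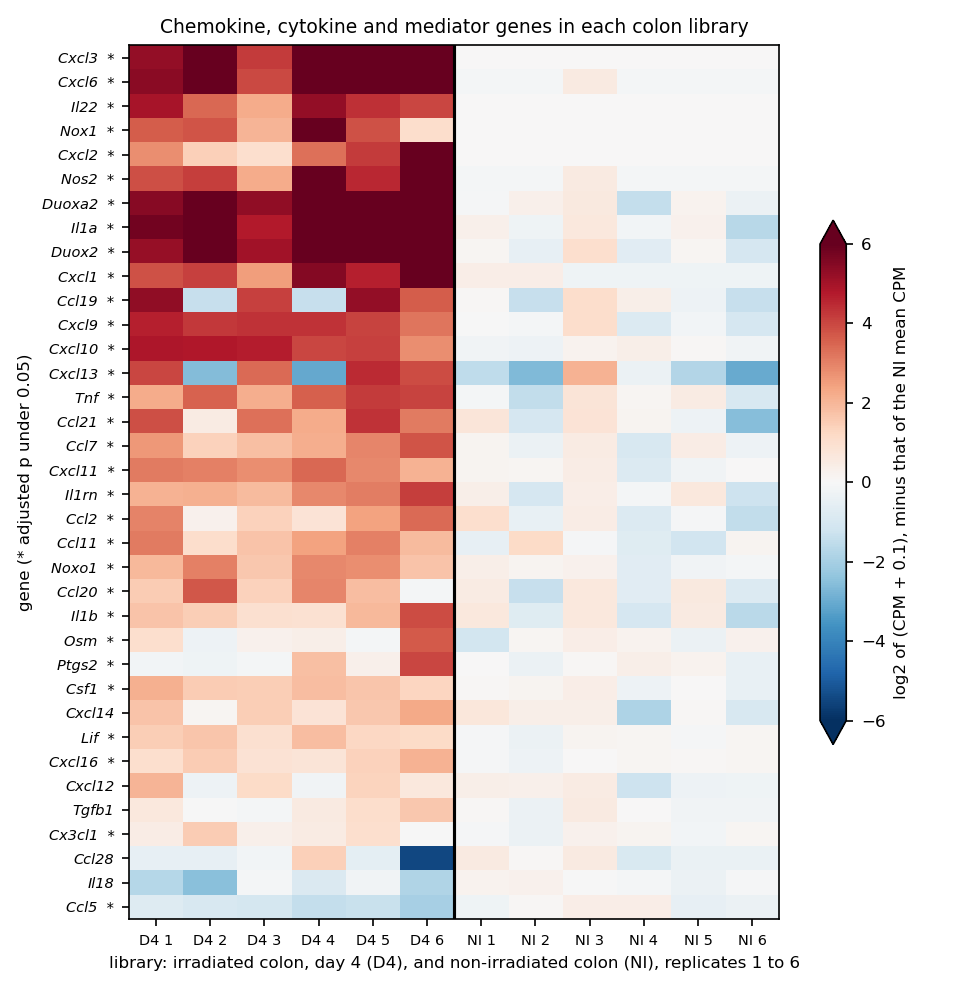
Level of 36 inflammatory genes in each irradiated (left) and non-irradiated (right) colon library, as log2 of CPM plus 0.1, minus that of the mean CPM of non-irradiated colon, on a scale that ends at 6 in both directions; asterisks mark the 31 genes called. Columns are libraries and rows are genes; most rows are red (higher) in all 6 irradiated libraries, Ccl5 is blue (lower) in all 6, and Ccl19 and Cxcl13 are red in 4 and blue in replicates 2 and 4.

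Markers of other cells did not share a direction. The neutrophil, macrophage and fibroblast lists were mostly higher, the mast cell list was lower, and few T cell or smooth muscle genes were called. The part of these cells in the results above was not tested. The summed level of the neutrophil list was 21.5 to 136 CPM (median 54.8) in irradiated colon, against 6.25 to 30.1 CPM (median 14.2) in non-irradiated colon. Of the 16 neutrophil genes, 8 were tested, and of these 5 were higher and none lower, while 24.6% of all genes were higher. Cxcr1, Fpr1, Fpr2, Mpo, Elane, Mmp8, Trem1 and Ngp were under the filter. Members scarce in non-irradiated colon can pass the filter through irradiated libraries, so this share is no test of the list. S100a9, a calcium-binding protein of neutrophils that inflamed epithelium also makes, was at 7.09 to 105 CPM (median 38.2) in irradiated colon, against 0.12 to 0.928 CPM (median 0.414) in non-irradiated colon (log2 fold change 6.38 ± 0.75 SE, adjusted p = 3.39e-08). Csf3r and Cxcr2, receptors that define neutrophils, were scarce, at 0.469 to 3.28 CPM (median 0.916) and 0.104 to 4.65 CPM (median 0.481) in irradiated colon. They were higher without overlap (log2 fold change 3.62, adjusted p = 8.64e-05 for Csf3r and log2 fold change 4.54, adjusted p = 0.000769 for Cxcr2). Mpo and Elane, granule enzymes of immature neutrophils, were at most 0.289 and 0.0579 CPM in irradiated colon, and Cxcr1 and Fpr2, chemoattractant receptors, were at 0 there. Macrophage markers summed to 238 to 428 CPM (median 278) in irradiated colon, against 133 to 227 CPM (median 178) in non-irradiated colon, and 10 of 15 were higher, 7 without irradiated replicate 6. Without replicates 4 and 6 that count was 5, and with the mitochondrial share added to the fit 3. Fcgr1a, the high-affinity IgG receptor, was at 0.782 to 4.81 CPM (median 1.62) in irradiated colon, against 0 to 0.434 CPM (median 0.234) in non-irradiated colon (log2 fold change 3.21 ± 0.64 SE, adjusted p = 0.000132). Mrc1, the mannose receptor, was higher (log2 fold change 2.04). Csf1r, the receptor on which macrophages depend, overlapped (log2 fold change 0.11, adjusted p = 0.853).

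Mast cell genes were lower as a whole. All 6 tested were lower, with a median log2 fold change of -5.75, or -4.9 with the gene at 0 set to its bound, and the summed list fell to 3.61 to 13.8 CPM in irradiated colon, against 24.7 to 29 CPM in non-irradiated colon. Kit, the stem cell factor receptor, which other gut cells also express, was at 3.17 to 13.4 CPM (median 7.68) in irradiated colon, against 9.86 to 19 CPM (median 12.6) in non-irradiated colon. Its ranges overlapped, and its call was lost without irradiated replicate 2 or 6 or non-irradiated replicate 2. Ms4a2 and Fcer1a encode chains of the high-affinity IgE receptor, which mast cells carry, though not they alone. Fcer1a had 0 counts in all irradiated libraries and 0.928 to 1.74 CPM (median 1.18) in non-irradiated colon, at least 46.6-fold lower. Ms4a2 was at 0 in 4 irradiated libraries and at most 0.0579 CPM in the other 2, against 2.99 to 5.01 CPM (median 3.47) in non-irradiated colon, lower by a ratio of 204, with a 95% counting interval from 56.1 to 1691. Gata2, a transcription factor of mast cells, was at 0.104 to 0.437 CPM (median 0.138) in irradiated colon, against 2.06 to 4.45 CPM (median 3.32) in non-irradiated colon (log2 fold change -4.07 ± 0.59 SE, adjusted p = 1.41e-06). The chymase and tryptase genes Cma1, Tpsb2 and Tpsab1 were under the filter. Mcpt1 and Mcpt2, mast cell protease genes of the list, had no row.

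Few T cell markers passed the test. Of 10 T and NK cell genes tested, 1 was higher, Cd3g, part of the antigen receptor of T cells, and the summed list was 18.4 to 41.1 CPM in irradiated colon, against 28.9 to 48.6 CPM in non-irradiated colon. Cd3e, another chain of it, was at 0.62 to 2.24 CPM (median 0.93) in irradiated colon, against 0.272 to 2.22 CPM (median 1.01) in non-irradiated colon (log2 fold change 0.055, adjusted p = 0.94), and Gzma, a granzyme of cytotoxic cells, at 1.09 to 12.7 CPM (median 10.5) in irradiated colon, against 13.5 to 23.6 CPM (median 16.3) in non-irradiated colon, without overlap but with an adjusted p of 0.0562. The T and NK count became 2 higher without non-irradiated replicate 3 or without irradiated replicate 3 or 4, and 1 higher and 2 lower without irradiated replicate 2. Of 9 B and plasma cell genes, 6 were lower and 1 higher, but the summed list was 2.66 to 13.6 CPM in irradiated colon, against 3.39 to 82.4 CPM in non-irradiated colon, and without non-irradiated replicate 3 the count was 1 lower and 1 higher. Cd22, an inhibitory receptor of B cells, was at 0 to 0.547 CPM (median 0.452) in irradiated colon, against 0.665 to 8.83 CPM (median 2.11) in non-irradiated colon (log2 fold change -2.93, adjusted p = 0.000352).

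Most genes of the connective tissue beneath the epithelium were higher. Of 21 fibroblast and matrix genes, 18 were higher and none lower, with a median log2 fold change of 2.51, and 13 were higher without irradiated replicate 6, and 4 with the mitochondrial share added to the fit; 1 was lower without irradiated replicate 1 or non-irradiated replicate 1, 2 or 3. The summed list was 128 to 368 CPM (median 220) in irradiated colon, against 87.7 to 124 CPM (median 119) in non-irradiated colon. Col1a1 and Col3a1, fibrillar collagens, were at 5.53 to 23.4 CPM (median 13.4) and 9.3 to 40.7 CPM (median 24.4) in irradiated colon, against 1.26 to 3.16 CPM (median 2.3) and 1.98 to 5.98 CPM (median 4.5) in non-irradiated colon. Neither overlapped (log2 fold changes 2.59 and 2.51). Pdgfra, a receptor of mesenchymal cells, was higher (log2 fold change 3.23), while Vim, the intermediate filament of those cells, overlapped (log2 fold change -0.03, adjusted p = 0.962). Smooth muscle markers summed to 116 to 220 CPM in irradiated colon, against 120 to 210 CPM in non-irradiated colon, with 1 of 9 genes higher, Synm, and 2 without non-irradiated replicate 3 or irradiated replicate 2 or 3. Endothelial markers summed to 7.7 to 37.9 CPM in irradiated colon, against 5.35 to 14.7 CPM in non-irradiated colon, with 6 of 11 higher but 2 without irradiated replicate 6 and 3 with the mitochondrial share added to the fit. Neuronal and glial markers summed to 4.4 to 10.3 CPM in irradiated colon, against 4.45 to 9.37 CPM in non-irradiated colon. Pancreatic and eosinophil markers were near 0 in both groups.

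Genes of matrix and plasminogen proteolysis, a list that holds inhibitors as well as enzymes, were higher in 10 of 12 tested, and in 7 without irradiated replicate 6. Mmp7, the matrilysin of injured epithelium, was at 21 to 149 CPM (median 78.6) in irradiated colon, against 0.0543 to 0.456 CPM (median 0.208) in non-irradiated colon (log2 fold change 8.47 ± 1.17 SE, adjusted p = 7.74e-07). Timp1, an inhibitor of metalloproteinases, was at 78.6 to 379 CPM (median 156) in irradiated colon, against 15.5 to 24.2 CPM (median 18.3) in non-irradiated colon. It stood apart in every library (log2 fold change 3.15 ± 0.33 SE, adjusted p = 5.04e-09), more so in series 2 (log2 fold change 2.24 in series 1 and 3.97 in series 2, adjusted p of the difference = 0.0323). Plau and Plat, the plasminogen activators, were higher (log2 fold changes 4.36 and 4.20) without overlap.

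Most genes for the oxidation of fatty acids, the main fuel of colonocytes, were lower. Of 19 genes of oxidation and ketogenesis, 15 were lower and none higher, 9 lower without irradiated replicates 4 and 6, with a median log2 fold change of -0.81, and 10 had groups without overlap. Acads, the dehydrogenase of short-chain fatty acids such as butyrate, was at 85.5 to 208 CPM (median 152) in irradiated colon, against 335 to 389 CPM (median 351) in non-irradiated colon (log2 fold change -1.25 ± 0.24 SE, adjusted p = 0.000102). Hadhb, a subunit of the trifunctional protein, was at 164 to 382 CPM (median 302) in irradiated colon, against 468 to 664 CPM (median 519.6) in non-irradiated colon (log2 fold change -0.93 ± 0.17 SE, adjusted p = 3.66e-05). Ppara, the nuclear receptor that activates this program, was at 1.04 to 8.34 CPM (median 4.39) in irradiated colon, against 11.1 to 16.8 CPM (median 14.7) in non-irradiated colon (log2 fold change -1.79, adjusted p = 0.00021). Cpt1a, the gate for long-chain fatty acids into mitochondria, overlapped (log2 fold change -0.27, adjusted p = 0.133). Nuclear genes of the respiratory chain and citrate cycle were lower in 7 of 16, with none higher and a median of -0.49. Cox4i1, a subunit of cytochrome oxidase, was at 725 to 1257 CPM (median 1061) in irradiated colon, against 1460 to 1722 CPM (median 1657) in non-irradiated colon (log2 fold change -0.69 ± 0.20 SE, adjusted p = 0.00508). Without irradiated replicate 6 the count was 4, and without replicates 4 and 6 none was called. The share of mitochondrially encoded counts, given above, was lower beside these genes, and with it added to the fit 8 of the oxidation genes and none of the respiratory genes were called.

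Of 12 glycolysis and hypoxia genes, 6 were higher and 1 lower, and 3 were higher without irradiated replicate 2, or 2 with the mitochondrial share added to the fit. Pfkfb3, which speeds glycolysis by making fructose-2,6-bisphosphate, was at 5.06 to 76.6 CPM (median 33.4) in irradiated colon, against 0.869 to 3.25 CPM (median 1.66) in non-irradiated colon (log2 fold change 4.26 ± 0.52 SE, adjusted p = 7.87e-08). Bnip3, a mitophagy receptor, was lower (log2 fold change -1.05) without overlap, and Vegfa and Car9 overlapped. Cholesterol synthesis genes did not share a direction, with 1 of 17 higher and 2 lower, and without irradiated replicate 6 none was higher and 1 lower, while without irradiated replicate 3 or 4 it was 2 higher and 1 lower and without non-irradiated replicate 4, 5 or 6 it was 1 of each. Among drug-metabolizing enzymes 5 of 17 were higher and 4 lower, near the shares of all genes. Ces2c, a carboxylesterase, was at 114 to 258 CPM (median 160.2) in irradiated colon, against 23.6 to 29.3 CPM (median 28.1) in non-irradiated colon (log2 fold change 2.59 ± 0.25 SE, adjusted p = 1.07e-09), whereas Aldh1a7, an aldehyde dehydrogenase, was at 0.875 to 21.6 CPM (median 12.6) in irradiated colon, against 69.4 to 169 CPM (median 113) in non-irradiated colon (log2 fold change -3.60 ± 0.71 SE, adjusted p = 0.000113).

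Of 14 genes of the endoplasmic reticulum and integrated stress response tested, 9 were higher and none lower. Hspa5, the chaperone BiP, was at 847 to 1268 CPM (median 968) in irradiated colon, against 487 to 739 CPM (median 583) in non-irradiated colon (log2 fold change 0.76 ± 0.13 SE, adjusted p = 1.13e-05). Asns, which makes asparagine under amino acid shortage, was higher (log2 fold change 2.10) without overlap. Atf4, Xbp1 and Ddit3, transcription factors of the same response, overlapped, with adjusted p of 0.174, 0.452 and 0.869. Ppp1r15a was listed at 0 in all 12 libraries, which again is not read as absence. Of 17 immediate early and ERK output genes, 11 were higher, none lower and all 11 without overlap. Etv4, a transcription factor induced by ERK, was at 30.3 to 103 CPM (median 46.4) in irradiated colon, against 1.14 to 2.28 CPM (median 1.86) in non-irradiated colon (log2 fold change 4.94 ± 0.46 SE, adjusted p = 3.64e-10). Dusp6, the phosphatase that returns ERK to rest, was at 113 to 358 CPM (median 139.6) in irradiated colon, against 15.2 to 35.2 CPM (median 26.3) in non-irradiated colon (6.49-fold, adjusted p = 4.92e-09). Fos and Egr1, early transcription factors, were higher (log2 fold changes 1.45 and 1.66). Jun overlapped (log2 fold change 0.73, adjusted p = 0.137), and Junb was listed at 0 in all 12 libraries, with the same limit.

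Clock genes were lower in 6 of 15 and higher in 1. Cry2, a repressor of the clock, was at 9.15 to 33.8 CPM (median 15.1) in irradiated colon, against 39.8 to 70.8 CPM (median 50.2) in non-irradiated colon (log2 fold change -1.60 ± 0.21 SE, adjusted p = 3.42e-07), and Nr1d2, a nuclear receptor of the same loop, at 16.7 to 28.5 CPM (median 22) in irradiated colon, against 32.8 to 66.6 CPM (median 46.2) in non-irradiated colon (log2 fold change -1.14 ± 0.19 SE, adjusted p = 1.77e-05). Neither overlapped. Other members differed between the series: Tef, a transcription factor of clock output, had opposite signs in them (log2 fold change -1.43 in series 1 and 0.51 in series 2, adjusted p of the difference = 0.0242), as did Ciart, a repressor (log2 fold change -2.13 in series 1 and 2.02 in series 2, adjusted p of the difference = 0.0273), and neither was called over both series. Over the list the median was -1.35 in series 1 and -0.033 in series 2. The sources used here give no hour of tissue collection.

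**Figure D4:**
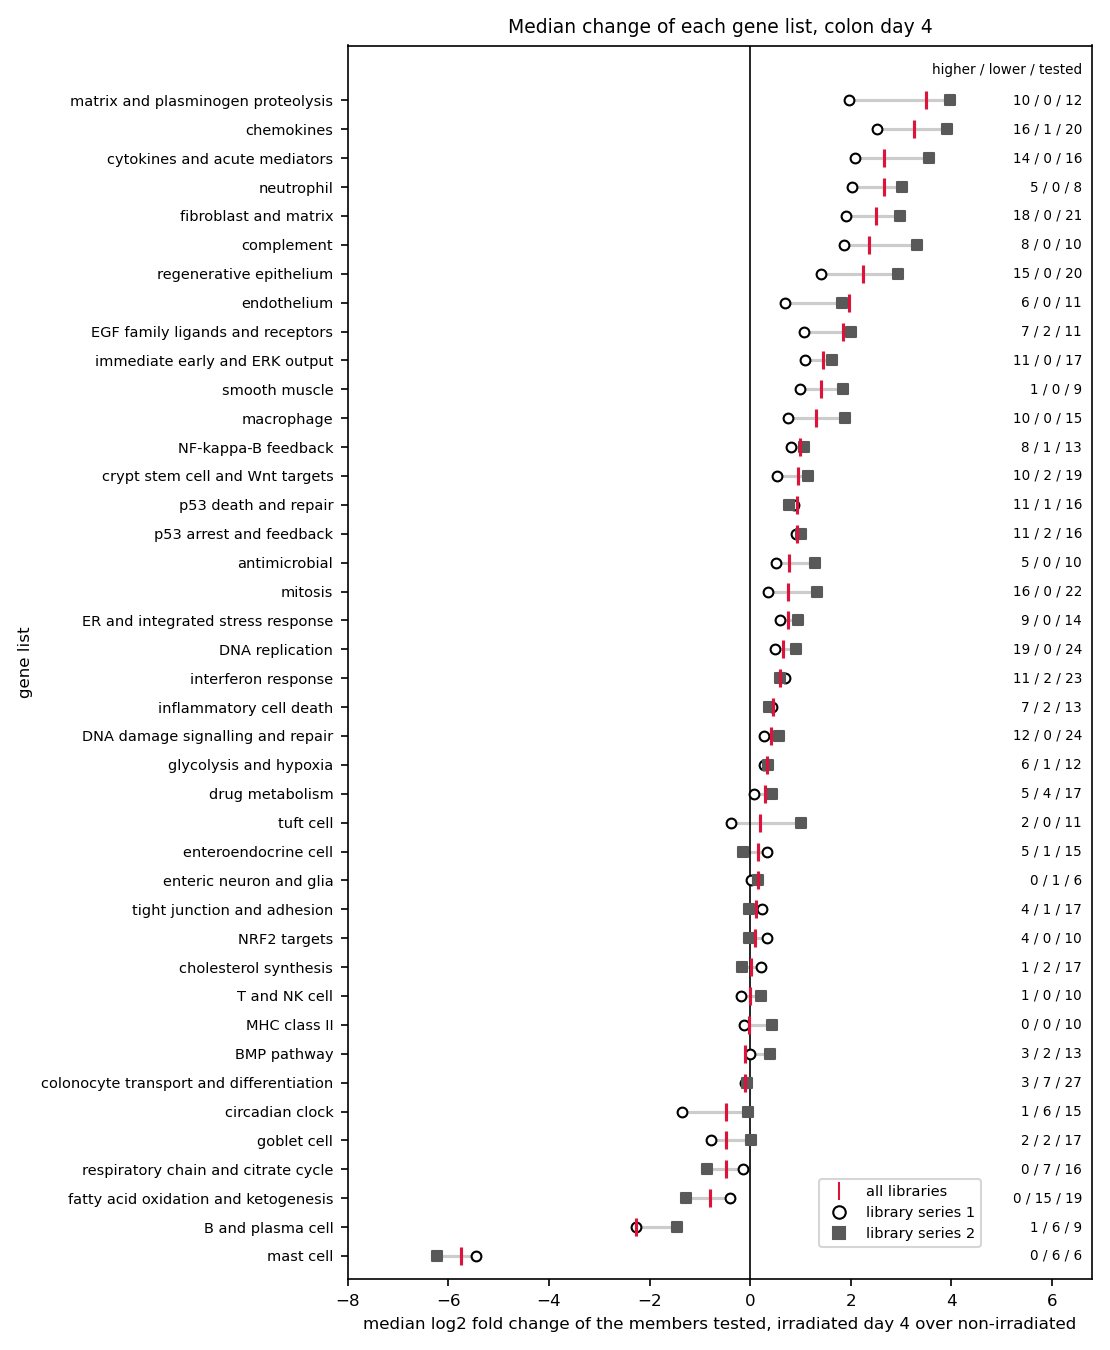
Median log2 fold change of irradiated over non-irradiated colon for 41 gene lists, with the genes tested in each. Circles are library series 1 and squares series 2, both from a separate fit of the 12 compared libraries. Red ticks are from the fit of 42 colon libraries, and the numbers give members higher, lower and tested. The median was larger in absolute value in series 2 for 30 of the 41 lists.

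Beyond the lists, the largest increases among genes of at least 5 CPM on average included Pinlyp, a phospholipase inhibitor of the Ly6 family, at 11.8 to 45.8 CPM (median 15.9) in irradiated colon, against 0 to 0.0569 CPM (median 0) in non-irradiated colon. It was close to absent without irradiation, with a ratio of 1149, with a 95% counting interval from 318 to 9493 (adjusted p = 4.38e-12). Atg9b, an autophagy gene, had a ratio of 907, with a 95% counting interval from 251 to 7495 (adjusted p = 3.33e-07), and Tgm1, a transglutaminase of squamous epithelium, had 2.46, 18.7, 2.71, 6.76, 45.8 and 337 CPM in irradiated replicates 1 to 6. At the other end, Gkn3, a secreted gastrokine, was at 0.273 to 1.35 CPM (median 0.717) in irradiated colon, against 8.24 to 28.3 CPM (median 17.4) in non-irradiated colon (log2 fold change -4.52 ± 0.37 SE, adjusted p = 2.53e-11), and Cacna1h, a calcium channel, at 4.54 to 14.2 CPM (median 9.36) in irradiated colon, against 92.2 to 148 CPM (median 97.2) in non-irradiated colon (log2 fold change -3.53 ± 0.27 SE, adjusted p = 4.89e-12). Neither gene overlapped between groups. Slco2b1, an organic anion transporter, was at 2.24 to 33.9 CPM (median 12.2) in irradiated colon, against 109 to 136 CPM (median 120.2) in non-irradiated colon (log2 fold change -3.23 ± 0.50 SE, adjusted p = 3.97e-06). Flrt1, a membrane adhesion protein, was lower (log2 fold change -3.21), with -1.70 in series 1 and -5.21 in series 2 (adjusted p of the difference = 0.0158).

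Some genes spread widely among the irradiated libraries. Napsa, an aspartic protease, had 637, 973, 726, 7.05, 441 and 24.2 CPM in irradiated replicates 1 to 6, and 520.2 to 1039 CPM (median 872) in non-irradiated colon. Replicates 4 and 6 were near loss and the others in or near the non-irradiated range (log2 fold change -1.42 ± 0.91 SE, adjusted p = 0.199). Osr2, a transcription factor, had 90.8, 105, 134, 0.226, 64.1 and 26.9 CPM in irradiated colon, against 124 to 201 CPM (median 155) in non-irradiated colon (log2 fold change -1.66, adjusted p = 0.233). Colec10, a collectin, had 95.5, 59.5, 103, 0.338, 27.9 and 0.0547 CPM in irradiated colon, against 109 to 292 CPM (median 238) in non-irradiated colon. All 6 were below the non-irradiated range (log2 fold change -3.42 ± 0.96 SE, adjusted p = 0.00422). Ggta1, a galactosyltransferase, had 252, 216, 289.5, 5.02, 51.5 and 5.08 CPM in irradiated colon, and Aoc1, which breaks down histamine, 565, 440.1, 569.8, 47.4, 158 and 3.5 CPM. Both were below the non-irradiated ranges of 294 to 593 CPM (median 465) and 936 to 1595 CPM (median 1292), with the fitted calls (log2 fold change -2.26, adjusted p = 0.0158 for Ggta1 and log2 fold change -2.53, adjusted p = 0.0217 for Aoc1), that of Aoc1 lost without irradiated replicate 4. Cyp24a1, which degrades vitamin D, had 7.92, 40.4, 0, 286, 34.7 and 1.97 CPM in irradiated colon, against 0 to 2.24 CPM (median 0.087) in non-irradiated colon (log2 fold change 6.99, adjusted p = 0.00156). Slc10a2, the ileal bile acid transporter, had 51.6, 106, 38.7, 0.169, 49.4 and 1.86 CPM in irradiated colon, against 1.74 to 7.17 CPM (median 3.24) in non-irradiated colon (log2 fold change 2.94, adjusted p = 0.0106), a call lost without irradiated replicate 5. For Napsa, Osr2, Colec10, Ggta1, Aoc1 and Slc10a2, replicates 4 and 6 were the lowest of the 6 irradiated libraries.

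Day 7 of irradiated colon was compared with day 4, as a contrast of those groups within the same fit. Of 13306 genes tested, 2399 (18%) were higher and 2463 (18.5%) lower at day 7. Mitochondrially encoded genes took 3.24% to 4.82% of counts at day 7, below all day 4 libraries, and with that share added to the fit 575 genes were called. Of the p53 targets, 8 of 16 arrest genes and 8 of 16 death and repair genes were lower at day 7, and 1, Pcna, was higher (2 without day 4 replicate 6). With the mitochondrial share added to the fit, 5 and 2 were lower and none higher. Within series 1 alone, 2 arrest genes and 1 death and repair gene were lower and none higher. Series 2 alone had 8 and 11 lower, and 2 death and repair genes higher. The median of Ccng1 was 64.2 CPM without irradiation, 417 CPM at day 4 and 186 CPM at day 7 (log2 difference -1.02 ± 0.19 SE, adjusted p = 9.71e-05). That of Cdkn1a was 152 CPM without irradiation, 374 CPM at day 4 and 201 CPM at day 7 (log2 difference -0.83, adjusted p = 0.000455), and Eda2r had 0.0554 CPM without irradiation, 11.9 CPM at day 4 and 3.71 CPM at day 7 (log2 difference -1.15, adjusted p = 0.0331). Proliferation genes were higher than at day 4: 22 of 22 mitosis genes, 22 of 24 replication genes and 20 of 24 damage response genes were higher at day 7, and none lower. With the mitochondrial share added to the fit these counts were 0, 2 and 1 in edgeR, with an unadjusted p below 0.05 for 12, 9 and 10 genes. The same counts were 20, 9 and 6 within series 1 alone, and 22, 19 and 17 within series 2 alone. Mki67, which had not passed the test at day 4, had medians of 47.6 CPM without irradiation, 57.2 CPM at day 4 and 198 CPM at day 7 (log2 difference 1.80 ± 0.24 SE, adjusted p = 9.67e-07). The Wnt target Rnf43 was lower at day 7, with medians of 50.6 CPM without irradiation, 119.8 CPM at day 4 and 32.1 CPM at day 7 (log2 difference -1.55, adjusted p = 2.39e-05).

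The ligands of CXCR3 were lower at day 7, among 10 of 20 chemokine genes lower and none higher. Within series 1 alone, 3 of 18 chemokine genes were lower and 2 higher. Series 2 alone had 12 of 17 lower and none higher. Cxcl10 had 3.9 CPM without irradiation, 89.6 CPM at day 4 and 9.21 CPM at day 7 (log2 difference -2.67 ± 0.39 SE, adjusted p = 3.08e-06), and Cxcl11 12.7 CPM without irradiation, 93.3 CPM at day 4 and 9.3 CPM at day 7 (log2 difference -2.69, adjusted p = 1.76e-06). In contrast the neutrophil attractants Cxcl1 and Cxcl3 and the oxidase Duox2 did not pass the test between the days, with adjusted p of 0.841, 0.898 and 0.781. Nos2 was higher still, with 0 CPM without irradiation, 2.15 CPM at day 4 and 33.2 CPM at day 7 (log2 difference 3.29 ± 0.71 SE, adjusted p = 0.000447). T and NK cell genes were lower at day 7 in 7 of 10: Cd3e had 1.01 CPM without irradiation, 0.93 CPM at day 4 and 0.0692 CPM at day 7 (log2 difference -4.15 ± 0.70 SE, adjusted p = 2.46e-05). Ccl19 and Cxcl13, chemokines of lymphoid tissue, were nearly absent at day 7: Ccl19 was at 0 in 5 of 6 libraries and at 0.0442 CPM in the other, and Cxcl13 was at 0 in 3 and at most 0.325 CPM (adjusted p = 0.00079 for Ccl19 and 0.000618 for Cxcl13 in edgeR). Of the ion transport genes, Scnn1g was higher at day 7 (log2 difference 3.70 ± 0.55 SE, adjusted p = 4.67e-06), with 0.674 CPM without irradiation, 0.0563 CPM at day 4 and 0.948 CPM at day 7. Of 17 cholesterol synthesis genes, 11 were higher at day 7, but 1 within series 1 alone and 14 within series 2 alone. With the mitochondrial share added to the fit, the day 7 calls of Mki67, Rnf43, Nos2, Cd3e, Ccl19 and Cxcl13 were lost, and 4 of the chemokine genes, 1 of the T and NK cell genes and 3 of the cholesterol genes were called. The calls of Ccl19 and Cxcl13 were also lost within each series and with only the compared groups in the fit. The part of that share in the day 7 results was not tested. The call of Eda2r was also lost on leaving out any 1 of day 4 replicates 3, 4 and 6 and day 7 replicates 3 to 6. Within series 1 alone, the day 7 calls of Ccng1, Cdkn1a, Eda2r, Pcna, Rnf43 and Cxcl11 were lost. Both comparisons share the day 4 libraries.

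**Figure D5:**
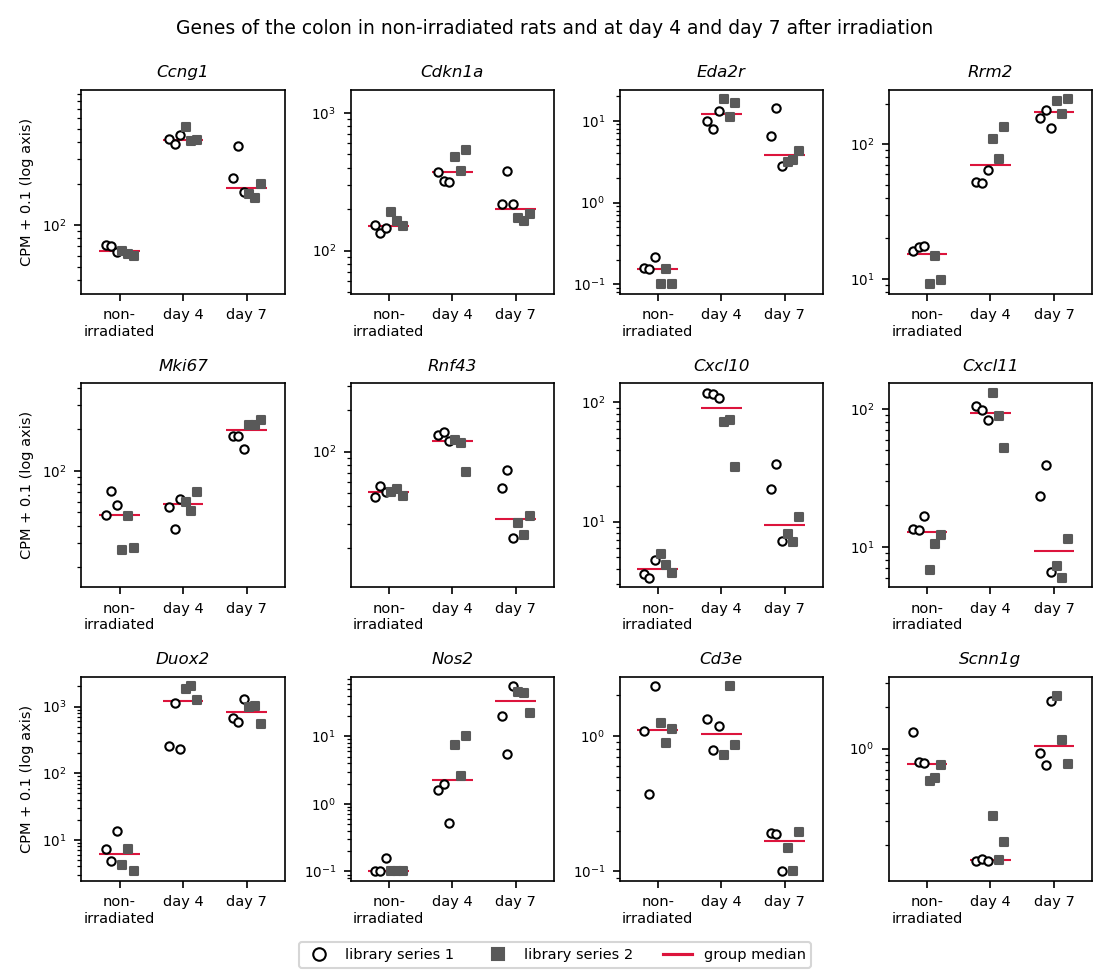
CPM of 12 genes on a log10 axis, with 0.1 added, in non-irradiated colon, day 4 and day 7 of irradiated colon without drug; points are libraries, 6 in each group, and lines are medians. Ccng1, Cdkn1a, Eda2r, Rnf43, Cxcl10 and Cxcl11 have their highest median at day 4, Mki67 and Nos2 at day 7, and Cd3e has its lowest at day 7.

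The effect of irradiation at day 4 was also tested between colon and jejunum. The difference passed the test for 1978 of 12858 genes (15.4%), 832 (6.47%) with the higher log2 fold change in colon and 1146 (8.91%) with the lower. Library numbers are shared between the tissues, so pairs of libraries may come from the same rats, which the fit did not use. Of the 16 p53 arrest genes, 5 had the higher log2 fold change in colon, namely Cdkn1a (difference 0.64), Btg2 (0.95), Mdm2 (0.65), Zmat3 and Plk2, and 3 the lower, Ppm1d (-0.55), Tigar (-1.82) and Gdf15 (-1.52). Leaving out single libraries ended the call of Mdm2 in 16 of 24 fits, of Gdf15 in 12 and of Ppm1d in 9, and the lower count ranged from 1 to 4. Within series 1 only 2 arrest genes passed, both higher, and no death or repair gene. Of the 16 death and repair genes, 2 had the higher, Bbc3 (1.06) and Fas (1.48), and 1 the lower, Xpc (-0.54), a call lost without non-irradiated colon replicate 4, irradiated colon replicate 3, irradiated jejunum replicate 6 or non-irradiated jejunum replicate 2 or 3. Among those that did not pass, Ccng1 had a difference in log2 fold change of 0.04 (adjusted p = 0.921), Phlda3 0.27 (adjusted p = 0.829) and Rps27l 0.23 (adjusted p = 0.564). Zmat3 and Plk2 had the higher log2 fold change in colon (difference 0.95, adjusted p = 0.000283 for Zmat3 and difference 2.21, adjusted p = 0.00107 for Plk2). None of 22 mitosis genes passed it in edgeR, and 1 had an unadjusted p below 0.05, while DESeq2 called 1. Without irradiated jejunum replicate 1, 1 passed as higher, and without replicate 2, 1 as lower. Of 17 goblet genes, 10 had the higher log2 fold change in colon and 1 the lower: Muc2 had the higher one (difference in log2 fold change 3.30 ± 0.71 SE, adjusted p = 0.00361) and Itln1 the lower (difference in log2 fold change -3.04 ± 0.74 SE, adjusted p = 0.0084). The count of 10 ranged from 6 to 10 on leaving out single libraries, and was 6 without irradiated colon replicate 3 or 4, non-irradiated colon replicate 3, 4 or 5, irradiated jejunum replicate 1, 2 or 3 or non-irradiated jejunum replicate 1, 2 or 3. It was 7 within series 1 and 4 within series 2, and the call of Itln1 was lost within each series. The non-irradiated jejunum libraries differed by series for Muc2, which had 122 to 361 CPM in irradiated jejunum, against 4409, 4047, 4776, 716.2, 595.5 and 641.8 CPM in non-irradiated jejunum on the shared scale, the last 3 being those of series 2. Mmp7 and Anxa1 showed larger log2 fold changes in colon (difference 7.13, adjusted p = 0.000268 for Mmp7 and difference 4.76, adjusted p = 0.00476 for Anxa1), as did Reg3b and Pla2g2a (difference 5.56, adjusted p = 0.0246 for Reg3b and difference 5.01, adjusted p = 0.0386 for Pla2g2a). For Reg3b this rests on the low level in non-irradiated colon, 0.336 to 8.89 CPM on the shared scale, against 10.5 to 1769 CPM in irradiated colon. In jejunum Reg3b was at 208 to 7258 CPM without irradiation and 1249 to 12460 CPM with it. Lower in colon than in jejunum by this measure were the mast cell genes Gata2 and Hdc (difference -4.53, adjusted p = 0.000748 for Gata2 and difference -3.21, adjusted p = 0.0134 for Hdc), the retinal dehydrogenase Aldh1a1 (difference -4.83, adjusted p = 0.0014) and Slc5a8, a transporter of short-chain fatty acids (difference -4.70, adjusted p = 0.00573). Gata2 and Hdc were scarce in jejunum, at no more than 0.411 and 0.514 CPM in irradiated and 0.32 and 0.528 CPM in non-irradiated libraries, so that these differences rest on colon. Slc5a8 was at 0 to 4.92 CPM in irradiated jejunum, against 0 to 0.191 CPM in non-irradiated jejunum, while in colon its log2 fold change was -0.48, so that its difference rests on low levels in jejunum. The calls of Reg3b and Pla2g2a were lost within series 1 and those of Hdc within each series, and that of Slc5a8 within series 2. The call of Reg3b was also lost on leaving out non-irradiated colon replicate 4, 5 or 6 or non-irradiated jejunum replicate 5, and that of Pla2g2a on leaving out any of 8 single libraries. St6galnac1, a sialyltransferase of mucins, had a difference of 11.80 ± 1.25 SE (adjusted p = 4.24e-06), although in colon it did not pass the test (log2 fold change -1.01, adjusted p = 0.287). That difference rests on 3 jejunum libraries: St6galnac1 was at 0 to 0.145 CPM in irradiated jejunum, against 0, 0.16 and 0.163 CPM in the non-irradiated libraries of series 1 and 1107, 1127 and 1098 CPM in those of series 2. With only series 1 in the fit, 530 genes passed the test between the tissues.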

How the data were processed

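Total RNA of rat colon and jejunum epithelium was sequenced on a DNBSEQ-G400, per the labels' protocols. Reads were aligned with STAR 2.7.10a to mRatBN7.2, per the submitters' processing notes; which counter, annotation and strand setting were used is not given in the sources used here. Whole read counts per gene, not normalized, make up the deposited table. Where reads cannot be assigned by strand, overlapping genes are uncertain, and paralogs may share reads.

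Irradiated day 4 colon was tested against non-irradiated colon with edgeR 4.0.16 (quasi-likelihood F test, TMM, filterByExpr, 13306 genes). The fit took all 42 colon libraries of the count table, with library series, the first digit of the library name, as a term. These included the irradiated arms given oral vehicle or Kushen powder, which thus shaped its filter, scaling and estimate of spread. Benjamini-Hochberg adjusted p below 0.05 counted as called. CPM used TMM-scaled library sizes, SE is the log2 fold change over the square root of F, and intervals cover counting error only. Day 7 against day 4 used the same fit, and the difference between tissues a fit of 24 libraries. Effects compared between the series, and the tests of their difference, came from a separate edgeR fit of the 12 compared libraries. That fit was chosen after the data were seen. Where the labels name no rats, p-values measure the spread between these libraries.

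The members and gene lists were chosen with earlier results of these data known. Of 716 listed genes in 43 lists, 690 had a row and 611 passed the filter; 26 had none and 79 were under the filter. The text names the 12 highest and 12 lowest called genes of at least 5 CPM, up to 5 members of each list by p, a fixed panel, the 12 most spread genes of at least 20 CPM, 6 genes at each end of the other contrasts, and further list members chosen after their values were seen; not all that the rule gives are printed, and a few genes are not reported here. Alternatives were RLE factors, DESeq2 1.42.0, other filters, no series term, a replicate block, fewer groups, each series alone, a mitochondrial covariate and leaving out each library. R 4.3.3, limma 3.58.1, Python 3.11, pandas 2.3.3 and matplotlib 3.10.9 were used.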

Additional observations from a re-analysis of the deposited data

Results flagged for a closer look

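In 23 of 225 sets of 6 libraries, 1 library lay apart from the others in log2(CPM + 1): its gap to the nearest library, as a share of the whole range of the set, was above the critical value of Dixon's test. The test's nominal rate of about 1 in 20 sets is no baseline for the 10.2% found here. Some of the genes were chosen for their spread or after their values were seen, and the same libraries recur in the sets of each group. Sets near 0 can be flagged on few counts, as were Nos2 and Cxcl6 in non-irradiated colon. Irradiated replicate 6 was the highest library for Cxcr2 (4.65 CPM, 0.641 of the range), Il1b (20.9 CPM, 0.688 of the range) and Lamb3 (902 CPM, 0.688 of the range). Irradiated replicate 6 was the lowest library for Areg (56.2 CPM, 0.723 of the range), Gzma (1.09 CPM, 0.705 of the range) and Oas1a (3.88 CPM, 0.677 of the range). Irradiated replicate 4 was the highest library for Axin2 (73.8 CPM, 0.629 of the range), Dusp6 (358 CPM, 0.685 of the range), Nox1 (8.34 CPM, 0.656 of the range), Olfm4 (33.8 CPM, 0.642 of the range) and Scnn1g (0.226 CPM, 0.653 of the range). Irradiated replicate 4 was the lowest library for Osr2 (0.226 CPM, 0.665 of the range). Irradiated replicate 2 was the lowest library for Cdk1 (24.6 CPM, 0.781 of the range). Non-irradiated replicate 3 was the highest library for Cxcl13 (5.47 CPM, 0.677 of the range), Cxcl6 (0.0569 CPM, 1 of the range), Nos2 (0.0569 CPM, 1 of the range), Pla2g2a (29.6 CPM, 0.796 of the range) and Reg3b (10.2 CPM, 0.661 of the range). Non-irradiated replicate 3 was the lowest library for Ppara (11.1 CPM, 0.633 of the range). Of the other non-irradiated libraries, replicate 2 was the highest for Cacna1h (148 CPM, 0.87 of the range), replicate 2 was the lowest for Cox4i1 (1460 CPM, 0.686 of the range), replicate 6 was the highest for Cyp24a1 (2.24 CPM, 0.867 of the range) and replicate 1 was the highest for Scnn1g (1.22 CPM, 0.65 of the range).

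The effect of irradiation on the log2 scale was larger or smaller in series 2 than in series 1, by a test of the difference itself, for Aen (1.03), Aurka (1.27), Ciart (4.16), Clu (1.72), Flrt1 (-3.52), Phlda3 (1.85), Pla2g2a (5.40), Rrm2 (1.52), Tef (1.95) and Timp1 (1.74), each value being the log2 fold change in series 2 minus that in series 1. Between the tissues, the log2 fold change in colon minus that in jejunum passed the test for Aldh1a1 (-4.83), Anxa1 (4.76), Bbc3 (1.06), Btg2 (0.95), Cdkn1a (0.64), Fas (1.48), Gata2 (-4.53), Gdf15 (-1.52), Hdc (-3.21), Itln1 (-3.04), Mdm2 (0.65), Mmp7 (7.13), Muc2 (3.30), Pla2g2a (5.01), Plk2 (2.21), Ppm1d (-0.55), Reg3b (5.56), Slc5a8 (-4.70), St6galnac1 (11.80), Tigar (-1.82), Xpc (-0.54) and Zmat3 (0.95). Each of these differences was at an adjusted p below 0.05 in edgeR. The test between the series was chosen after the data were seen.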

How the results depend on the processing

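Of 6242 genes called in irradiated over non-irradiated colon, the count lay between 5576 and 6530 with RLE factors, DESeq2, other filters, no series term, mitochondrial genes left out, only the compared groups or series 2 alone. It was 2872 within series 1 alone and 2847 with the mitochondrial share added to the fit. Leaving out each library in turn gave 5224 to 6238, and leaving out irradiated replicates 4 and 6 together, chosen after seeing the data, 4264. No gene was called in opposite directions between the full fit and any alternative. Replicate numbers did not pair the groups, with correlations of deviations from -0.212 to -0.0388, and with replicate number as a replicate block 6151 genes were called. For day 7 against day 4 (4862 genes), the count was 1646 within series 1 and 575 with the mitochondrial share added to the fit, 4144 to 5263 leaving out each library, and 4891 with the replicate block. For colon against jejunum (1978 genes), it was 530 within series 1, 1581 to 2685 leaving out each library, and 1789 with the library number as a replicate block. List members called numbered 352, and 227 with the mitochondrial share added to the fit; leaving out each library gave 316 to 355, and the replicate block 350.

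Of 187 named genes called, 174 kept their call in every leave-one-out fit. Signs reversed for Ptgs2, which had a log2 fold change of -0.12 within series 1 (adjusted p = 0.816) and -0.0088 without irradiated replicates 4 and 6 (adjusted p = 0.994), for Ciart, which had 2.02 within series 2 (adjusted p = 0.0269), and for Aqp8, which had -1.57 within series 1 (adjusted p = 0.0189). With DESeq2, Ccl19 and Fcer1a lost their calls, and Gzma and Lgr5 gained one. Lgr5 was also called with RLE factors, with a filter of 1 CPM in 6 libraries and with only the compared groups. The causes of these changes were not tested. Depth limits genes of under about 1 CPM, which rest on few counts.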
